A study of Mus musculus with 23 samples.

Results

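The comparison described here is A10-FMT against Sa in the second of 2 sets of small intestine libraries, with 3 libraries in each group, so 6 of the 23 libraries of the series. The libraries were chosen by the names of their columns, and no measured value entered the choice. FMT is fecal microbiota transplantation, and the study asked whether gut contents from donors dosed with alginate oligosaccharides (AOS) change the small intestine of mice given busulfan, an alkylating anticancer drug that damages the intestinal lining. All mice in both groups were ICR males, 3 weeks old at the start, and all received a single injection of busulfan at 40 mg/kg. Sa mice were then gavaged with saline, and A10-FMT mice with luminal contents of the small intestine of donors that had been given AOS at 10 mg/kg for 3 weeks. Con-FMT mice had donors given vehicle, and A100-FMT mice had donors given AOS at 100 mg/kg. Con-FMT and A100-FMT of set 2, with 3 libraries each, entered the fit and are given where they show how A10-FMT differed. There was no group without busulfan among the 23 libraries, ICR is an outbred stock, and the sources used here do not say whether a library is 1 animal or what the set codes mean. The methods describe daily gavage for 1 week and sampling after a further week, without naming a set.

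The lining of the small intestine is built of crypts and villi. Stem cells at the crypt base give rise to dividing cells that differentiate as they move up the villus, where absorptive enterocytes carry digestive enzymes and nutrient transporters on a brush border of microvilli. Paneth cells stay at the crypt base and secrete antimicrobial peptides, and goblet cells secrete mucus.

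Levels are given in FPKM, fragments per kilobase of transcript, scaled to the fragments of the library. The FPKM values of the Sa libraries summed to 559352, 556466 and 568230, and those of the A10-FMT libraries to 592278, 573481 and 569522. The number of reads behind them is not known, so a value of 0 carries no detection limit. The labelled tissue was checked against its markers. All 16 small intestine epithelium markers were tested, and Vil1, Fabp2 and Cdx2, which mark this epithelium, were detected in each of the 6 libraries, with a lowest value of 105 FPKM, that of Cdx2. Of the 16, 6 were lower and 0 higher in A10-FMT at an adjusted p under 0.05 in limma (1.42% lower over all tested genes), and the median log2 change was -0.44. Of 12 stomach and colon markers, 9 were found and 3 reached a mean of 1 FPKM, of which Cblif was higher in A10-FMT by that test (0.696% higher over all tested genes), and Car4 and Aqp8 did not pass it. The stomach markers Gkn1, Tff1 and Atp4a were at 0.18 FPKM or less. The defining smooth muscle markers Acta2, Actg2, Myh11 and Des were at or near 0, with a highest value of 0.04 FPKM over the 6 libraries. A mean of 1 FPKM was reached by 3 of the 13 smooth muscle genes found, Tagln, Smtn and Mylk. None of them differed between the groups at an adjusted p under 0.05 in limma (2.11% in either direction over all tested genes). Mylk, a kinase of myosin that many cell types make, was at 62.2 to 70.6 FPKM. None of the fibroblast, endothelial or enteric neuron markers reached a mean of 1 FPKM.

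Genes called lower in A10-FMT included brush-border enzymes, nutrient transporters and genes of fat uptake, and genes called higher included 5 of 20 tested Paneth cell antimicrobial genes. With limma on log2(FPKM + 1), 240 of 11351 genes tested (2.11%) passed an adjusted p under 0.05, of which 79 (0.696%) were higher and 161 (1.42%) lower in A10-FMT. Most changes were small, and 10 of the higher and 5 of the lower genes reached 2-fold on this scale. The lower genes were led by Cyp2b10, an inducible drug-metabolizing P450, Slc5a12, a monocarboxylate transporter, Matn2, a protein of the extracellular matrix, and Slc7a15, an amino acid transporter. The higher genes with a symbol were led by Gm7429, Ang4, an antimicrobial ribonuclease of Paneth cells, and Cblif, the intrinsic factor that binds vitamin B12 and a stomach marker. Cblif was at 0.93, 0.85 and 0.97 FPKM in Sa and at 4.55, 4.25 and 2.91 FPKM in A10-FMT. All 240 genes had FPKM values that did not overlap between the groups, while 19.2% of all tested genes had every A10-FMT library above every Sa library and 11.4% had every one below. With trimmed-mean scaling the calls were 63 higher and 212 lower. The count rested on single libraries of these small groups: it was 2 without Sa replicate 2, 1 without Sa replicate 3, 4 without A10-FMT replicate 2, 34 without A10-FMT replicate 1 and 97 without A10-FMT replicate 3. Slc34a2 was the 1 gene called without any of the 6 libraries in turn.

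**Figure D1:**
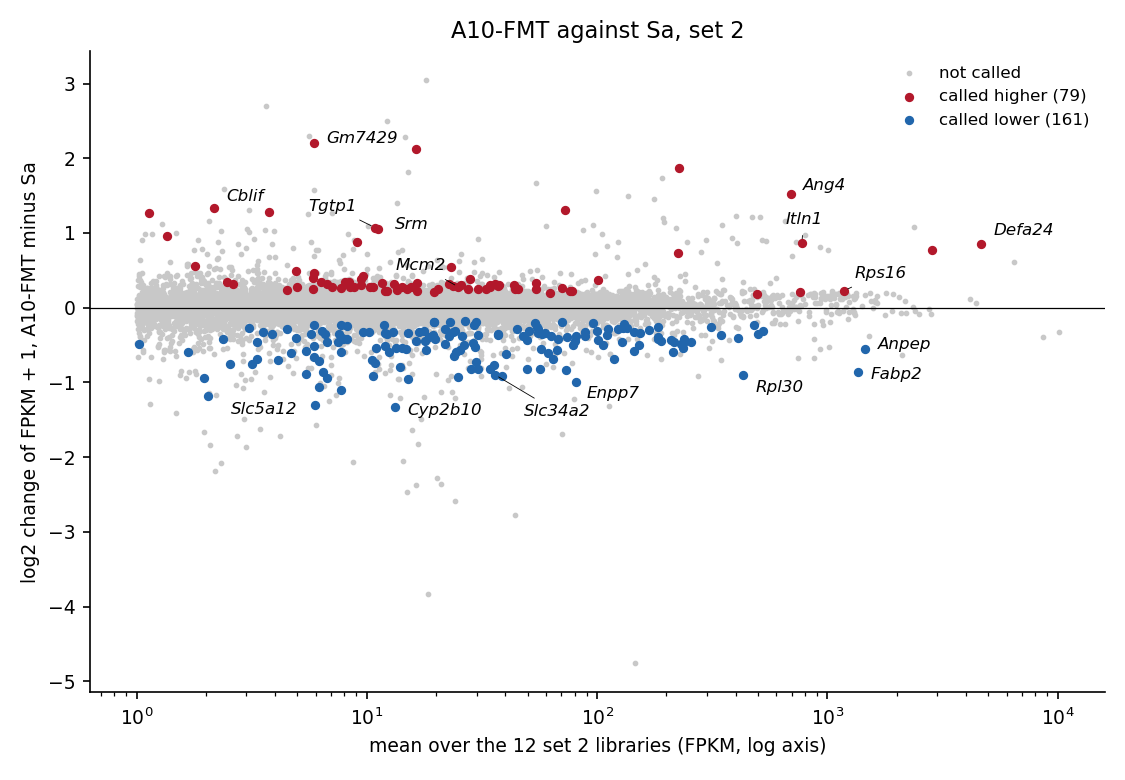
Log2 change of FPKM + 1 in A10-FMT minus Sa (vertical axis) against the mean FPKM over the 12 libraries of set 2 (horizontal, log axis), 1 point per gene tested. The 79 genes called higher are red and the 161 called lower are blue. Ang4, Itln1 and Defa24 stand at high levels among the red points, and Fabp2 and Anpep among the blue.

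Slc34a2 encodes a sodium-phosphate cotransporter that takes up phosphate through the brush border. It stood at 43.2, 51.5 and 51.6 FPKM in the Sa libraries and at 25.9, 25.25 and 25.7 FPKM in the A10-FMT libraries. The A10-FMT libraries lay close together and well under the lowest Sa library. The log2 change of Slc34a2 was -0.90 ± 0.07 (SE), and limma gave an adjusted p of 0.00178. Slc34a2 belonged to the list of ion and water transport, of which 24 of 26 members were tested, 3 were called lower and 0 higher (1.42% lower over all tested genes), and the median log2 change was -0.17 against 0.03 over all tested genes. The other called members were Aqp3, a water and glycerol channel, with a log2 change of -0.95, and Atp1b1, the beta subunit of the sodium pump, with -0.31. Slc5a12, which was not on this list, was at 7.38, 8.4 and 7.8 FPKM in Sa and at 3.52, 1.9 and 2.5 FPKM in A10-FMT, a log2 change of -1.31 ± 0.18 (limma adjusted p = 0.0163).

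The enzymes of the brush border gave the largest group of lower genes among the lists. Of 19 disaccharidases and peptidases listed, 18 were in the table and 17 were tested, and 10 were called lower and 0 higher, against 1.42% lower over all tested genes. In 16 of the 17, every A10-FMT library lay below every Sa library (11.4% over all tested genes), and the median log2 change was -0.59, which ran from -0.66 to -0.50 when each of the 6 libraries was left out. Anpep, aminopeptidase N, was the most abundant. It was at 1612, 1750.3 and 1696 FPKM in Sa and at 1263, 1089 and 1108 FPKM in A10-FMT. Both groups were narrow and lay apart, with a log2 change of -0.55 ± 0.08 (limma adjusted p = 0.0163).

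Dpp4, which removes dipeptides from peptide ends, was at 69.6, 86.2 and 83.6 FPKM in Sa and at 46.3, 47.5 and 53.9 FPKM in A10-FMT. Its groups did not overlap, and its log2 change was -0.68 ± 0.09 (limma adjusted p = 0.0163). Xpnpep2, an aminopeptidase for peptides with proline, and Mme, neprilysin, had log2 changes of -0.82 each. Mep1b, a subunit of the meprin protease, changed by -0.45, and Naaladl1, a further peptidase of the brush border, by -0.59. Lactase (Lct) and sucrase-isomaltase (Sis), both disaccharidases, were named after their values were seen. They were not called, with a log2 change of -0.73 and a limma adjusted p of 0.106 for Lct, and of -0.43 and 0.225 for Sis.

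Calls of lower genes were also found among transporters of amino acids and peptides. Of 19 listed, 17 were tested, 6 were called lower and 0 higher (1.42% lower over all tested genes), and the median log2 change was -0.35. Slc6a19, the main carrier for neutral amino acids, was at 64.4, 72.2 and 65.9 FPKM in Sa and at 34.3, 40.75 and 37.98 FPKM in A10-FMT. The A10-FMT mean was 0.558 of the Sa mean, and the log2 change of Slc6a19 was -0.83 ± 0.12 (limma adjusted p = 0.0163). Slc15a1, the carrier for dipeptides and tripeptides, changed by -0.65, and Slc7a9, an exchanger for cystine and basic amino acids, by -0.43. Slc7a15 changed by -1.11 ± 0.18, and Slc46a1, the intestinal folate carrier, by -0.59, both of them called. Slc5a1, the sodium-glucose cotransporter, was at 166.2, 171.7 and 171.7 FPKM in Sa and at 118.5, 122.9 and 140.9 FPKM in A10-FMT. Its groups did not overlap either, but with a limma adjusted p of 0.0528 it was not called. None of the 15 tested members of the sugar transport list was called, near the 2.11% called in either direction over all tested genes. Of the 15, 13 had a negative log2 change and 6 an unadjusted p under 0.05, against 4634 and 2584 of all 11351 tested genes. The median log2 change of that list was -0.21.

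**Figure D2:**
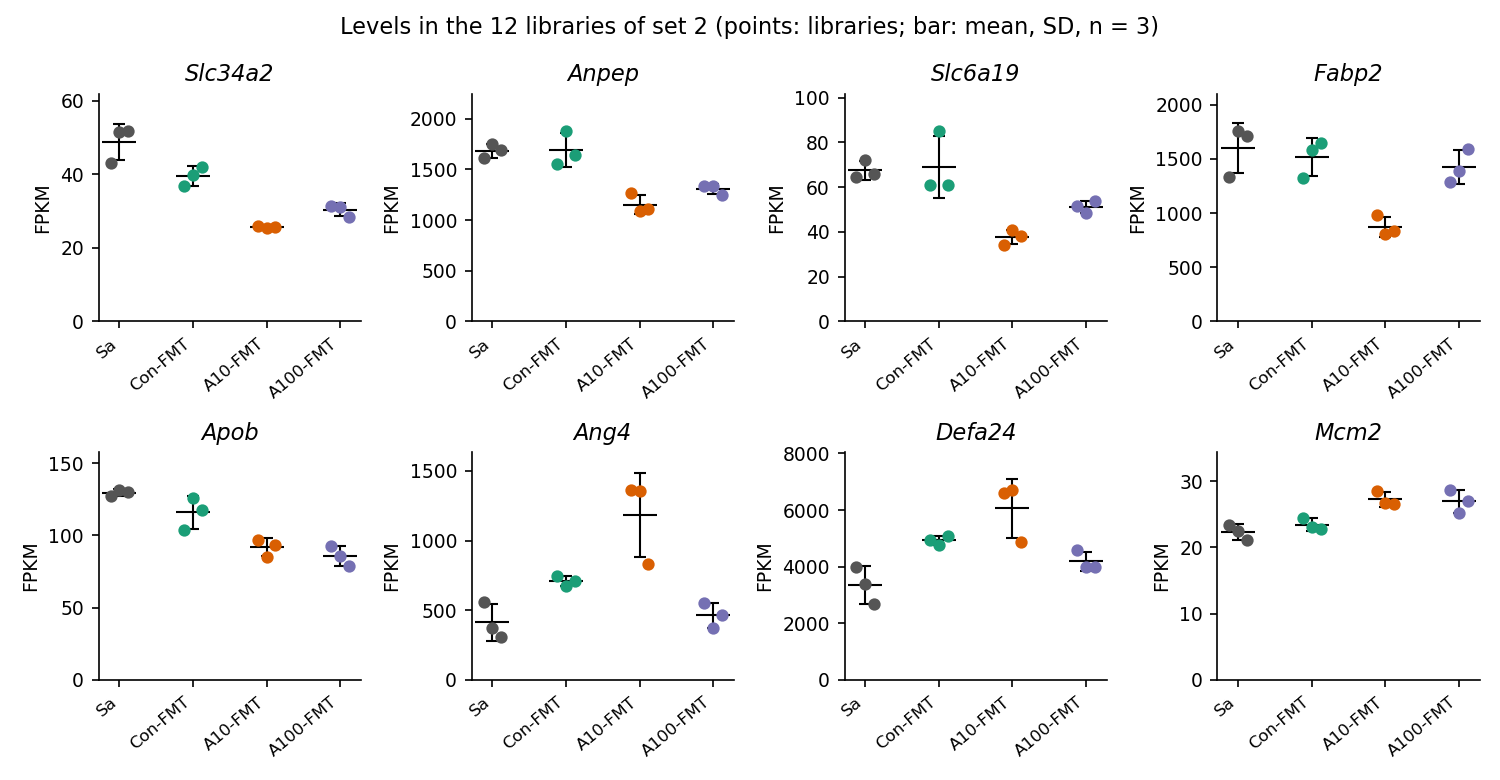
FPKM of 8 genes in the 12 libraries of set 2, with 1 point per library and bars for the mean and SD (n = 3). In Slc34a2, Anpep, Slc6a19, Fabp2 and Apob the 3 A10-FMT libraries lie below every Sa library, and in Ang4, Defa24 and Mcm2 above.

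Genes for the uptake of fat and its export in chylomicrons, the lipoproteins that carry dietary fat to the lymph, were among the lower genes. Of 26 listed, 24 were tested, 9 were called lower and 0 higher (1.42% lower over all tested genes), in 20 every A10-FMT library lay below every Sa library (11.4% over all tested genes), and the median log2 change was -0.38. Fabp2, the intestinal fatty acid binding protein, was at 1337, 1753 and 1709 FPKM in Sa and at 979.1, 809.3 and 834.9 FPKM in A10-FMT. Its level in A10-FMT was 0.547 of that in Sa, with a log2 change of -0.87 ± 0.13 (limma adjusted p = 0.0163). Apob, the structural protein of the chylomicron, was at 127.2, 131.4 and 130.2 FPKM in Sa and at 96.8, 84.7 and 93.6 FPKM in A10-FMT, a log2 change of -0.50 ± 0.08 (limma adjusted p = 0.0176). Mttp, which loads lipid onto Apob, changed by -0.40 (adjusted p = 0.0373), and Slc27a4, a fatty acid transport protein, by -0.44 (adjusted p = 0.0286). Apoa1 and Apoa4, the most abundant apolipoproteins of the list, had log2 changes of -0.63 and -0.67 and were not called, with adjusted p-values of 0.0997 and 0.0814. Enpp7, which splits sphingomyelin in the gut lumen, lay outside the list and changed by -0.99 ± 0.15 (adjusted p = 0.0176), from 87.9, 120.9 and 100.2 FPKM in Sa to 53.5, 45.3 and 54.6 FPKM in A10-FMT.

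The 250 bases before the start of Fabp2, Apob and Enpp7, 3 of the lower genes, are shown from RefSeq on GRCm38.p6, since their genes moved together and each window holds 1 of the motifs searched. They were chosen after the matches were seen. Capitals mark the match, on the opposite strand in Fabp2.
Fabp2, chr3:122894822-122895071, plus strand: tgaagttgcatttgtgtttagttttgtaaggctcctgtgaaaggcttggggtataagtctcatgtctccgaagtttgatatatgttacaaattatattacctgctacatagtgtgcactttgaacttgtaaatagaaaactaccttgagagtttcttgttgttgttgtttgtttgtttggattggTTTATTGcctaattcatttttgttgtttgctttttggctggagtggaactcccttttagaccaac
Apob, chr12:7977427-7977676, plus strand: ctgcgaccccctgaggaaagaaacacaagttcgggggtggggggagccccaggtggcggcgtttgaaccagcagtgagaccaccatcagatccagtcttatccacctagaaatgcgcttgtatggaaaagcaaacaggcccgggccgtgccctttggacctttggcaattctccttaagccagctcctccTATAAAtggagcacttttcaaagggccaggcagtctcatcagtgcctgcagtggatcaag
Enpp7, chr11:118987931-118988180, plus strand: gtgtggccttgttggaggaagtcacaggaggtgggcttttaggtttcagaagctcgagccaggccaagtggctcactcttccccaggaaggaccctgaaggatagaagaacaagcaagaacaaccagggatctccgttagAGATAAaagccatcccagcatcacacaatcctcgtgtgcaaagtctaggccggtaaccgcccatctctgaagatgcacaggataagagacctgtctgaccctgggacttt
The match in Fabp2 is the motif CAATAAA of CDX factors, 65 to 59 bases before the start, that in Apob is the TATA box TATAAA, 60 to 55 bases before it, and that in Enpp7 is the GATA motif AGATAA, 110 to 105 bases before it. Promoters were found for 127 of the 161 lower genes (175 promoters, as some genes have several), for 63 of the 79 higher genes (78 promoters) and for 8613 of the tested genes (10977 promoters). On either strand, TATAAA was in 11.4% of the promoters of the lower genes, in 7.69% of those of the higher genes, in 6.67% of those of all tested genes and in 12.4% of all promoters in the table. AGATAA was in 11.4%, 8.97%, 6.12% and 9.99% in the same order, and CAATAAA in 4%, 1.28%, 2.48% and 4.2%. CTTTGAT of TCF/LEF factors was in 5.14%, 2.56%, 2.34% and 3.21%, CAAAGTCCA of HNF4, which shares letters with CTTTGAT on the opposite strand, in 1.14%, 0%, 0.419% and 0.384%, and the E-box CACGTG in 5.14%, 7.69%, 8.53% and 6.02%. The HNF1 motif was in none of the tested genes' promoters and in 3 of 32851 in the table. A match is a stretch of letters and was not tested as a binding site, and the shares were not tested against each other.

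Structural genes of the microvillus were also among the lower genes. All 20 listed were in the table, 19 were tested, 4 were called lower and 0 higher (1.42% lower over all tested genes), and the median log2 change was -0.20. Espn, which bundles actin in the microvillus core, changed by -0.61, Cdhr2, a cadherin that links microvilli to each other, by -0.42, Pls1, a further actin bundler, by -0.39, and Ezr, which ties the membrane to actin, by -0.27. Vil1, villin, was at 687.8, 740.0 and 707.0 FPKM in Sa and at 626.1, 594.0 and 607.0 FPKM in A10-FMT, and with a limma adjusted p of 0.0633 it was not called. Krt20, a keratin of differentiated enterocytes, and Cdh17, an intestinal cadherin, were called with log2 changes of -0.35 and -0.23. Of 25 intestinal transcription factors, all tested, 2 were called lower and 1 higher (1.42% lower and 0.696% higher over all tested genes), with a median log2 change of 0.01. Maf, a factor of the enterocyte program, and Klf4, a factor of the upper villus, were called with -0.50 and -0.36, and Foxa3, a factor of secretory cells, with 0.27. Hnf4a, a main regulator of enterocyte genes, was at 262.2, 257.6 and 246.7 FPKM in Sa and at 256.4, 270.7 and 259.8 FPKM in A10-FMT, with groups that overlapped.

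Of the cytochrome P450 and conjugation genes, 35 were listed, 34 were in the table and 28 were tested, and 7 were called lower and 0 higher (1.42% lower over all tested genes), with a median log2 change of -0.35. Cyp2b10 was at 11.25, 21.1 and 18.3 FPKM in Sa and at 6.61, 4.54 and 6.80 FPKM in A10-FMT, so that its spread in Sa was wide but the groups did not meet. Its log2 change was -1.33 ± 0.26 (limma adjusted p = 0.0362). Cyp2c66, Cyp4b1 and Cyp4v3, enzymes of drug, fatty acid and retinoid oxidation, changed by -0.94, -0.91 and -0.82. P450 genes are members of families with close copies, and reads shared between copies make single members uncertain.

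Markers of both ends of the small intestine were among the lower genes. The list of distal genes had 15 members, 13 tested, 4 called lower (Cubn, Naaladl1, Clec2h and Mep1b) and 0 higher, against 1.42% lower over all tested genes, with a median log2 change of -0.59. The list of proximal genes had 14 members, 13 tested, 1 called lower (Cyp2c66) and 0 higher, against the same 1.42%, with a median of -0.47. Naaladl1, Mep1b and Cyp2c66 were already named above among brush-border enzymes and P450 genes, so these calls are not separate ones. Fabp6, the bile acid binding protein of the ileum, was at 763.2, 724.3 and 1128 FPKM in Sa and at 389.0, 528.8 and 750.5 FPKM in A10-FMT. The groups of Fabp6 overlapped, and its limma adjusted p was 0.244.

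**Figure D3:**
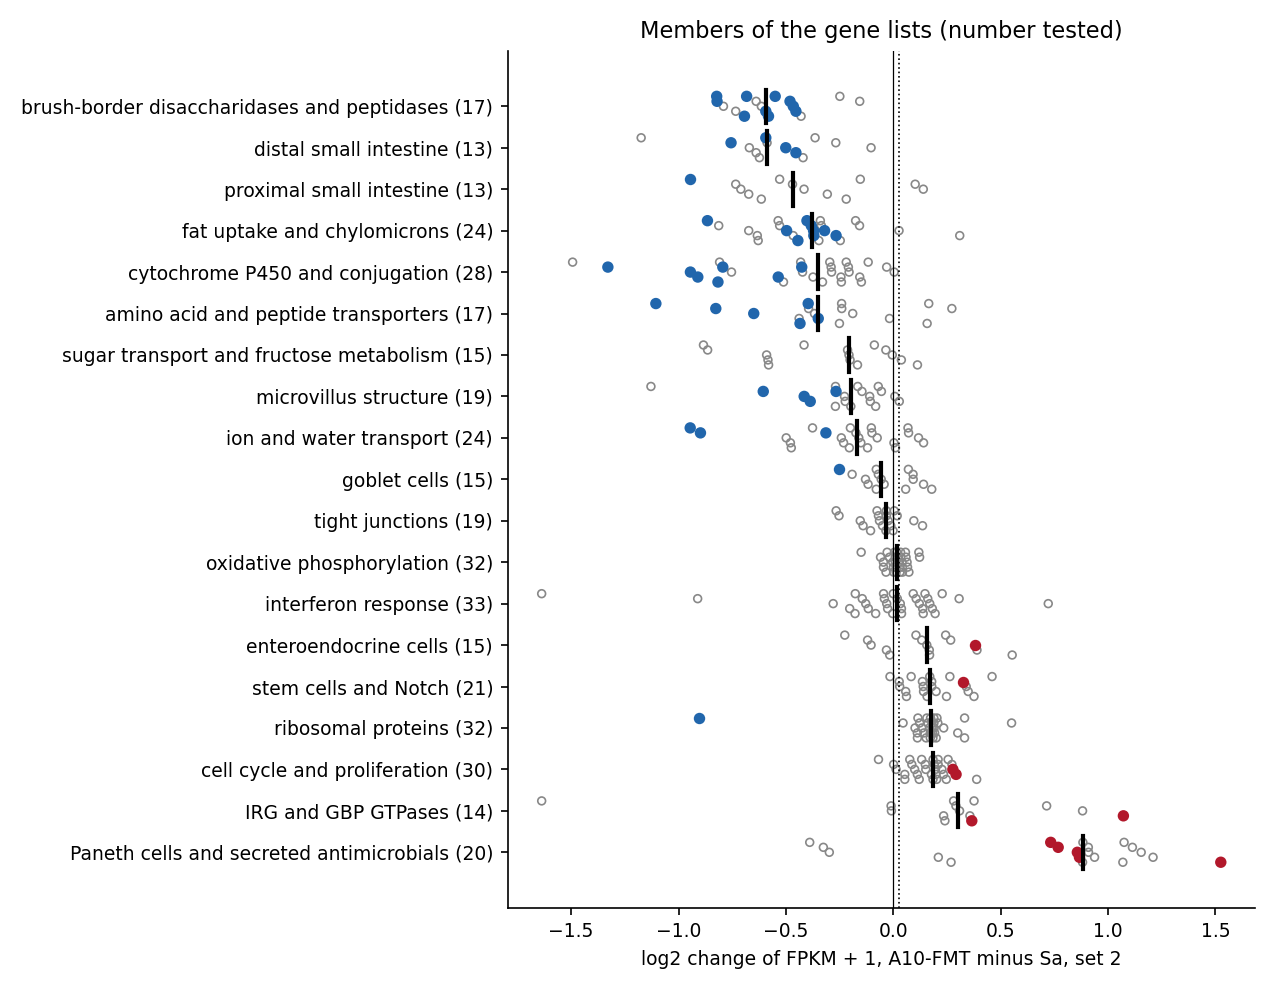
Log2 change of FPKM + 1 in A10-FMT minus Sa for each tested member of 19 gene lists, with the number tested in brackets. Filled points are called genes (red higher, blue lower), black bars are medians, and the dotted line is the median of all tested genes, 0.03. The medians run from -0.59 for brush-border enzymes to 0.88 for Paneth cell genes.

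Antimicrobial genes of Paneth cells had the highest median of the lists shown. Of 21 listed, 20 were in the table and tested, 5 were called higher and 0 lower, against 0.696% higher over all tested genes. In 8 of the 20 every A10-FMT library lay above every Sa library (19.2% over all tested genes), and the median log2 change was 0.88, which ran from 0.58 to 1.06 when each of the 6 libraries was left out. Ang4 was at 560.3, 375.8 and 305.4 FPKM in Sa and at 1362, 1355 and 834.3 FPKM in A10-FMT. Its mean in A10-FMT was 2.86 times that in Sa, with a log2 change of 1.52 ± 0.24 (limma adjusted p = 0.0176). Defa24, an alpha-defensin, was at 3991, 3400.2 and 2671 FPKM in Sa and at 6601, 6710 and 4865 FPKM in A10-FMT, a log2 change of 0.86 ± 0.15 (limma adjusted p = 0.0226). In both genes A10-FMT replicate 3 was the lowest of its group and still above every Sa library.

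The other called members were Defa17 (log2 change 0.77), Defa26 (0.73) and Itln1, a lectin that binds microbial sugars (0.87). Lyz1, the lysozyme of Paneth cells, was named after its values were seen. It was at 1977, 1857 and 1128 FPKM in Sa and at 4001, 4000 and 2422 FPKM in A10-FMT, and with an adjusted p of 0.0642 it was not called. The alpha-defensins are near-identical copies, so the level of each single one is uncertain, and some differed more between libraries of one group than between the groups. Defa21 was at 569.1, 27.7 and 2.93 FPKM in Sa and at 1722, 115.7 and 1.11 FPKM in A10-FMT, and its adjusted p was 0.894. Not all members were higher. Reg3b and Reg3g, antimicrobial lectins that enterocytes make as well, were the most abundant of the list, had log2 changes of -0.33 and -0.39 and were not called. The summed level of the list was 35558, 25673 and 33299 FPKM in Sa and 43810, 35772 and 33172 FPKM in A10-FMT, with groups that overlapped.

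Genes of crypt cells other than Paneth cells differed by less. Of 30 genes of the cell cycle, all tested, 2 were called higher and 0 lower (0.696% higher over all tested genes). In 29 the log2 change was positive, as in 6715 of the 11351 tested genes, and the median was 0.18. Mcm2, a subunit of the helicase that opens DNA for replication, was at 23.4, 22.5 and 21.1 FPKM in Sa and at 28.5, 26.65 and 26.6 FPKM in A10-FMT, a log2 change of 0.28 ± 0.06 (limma adjusted p = 0.0404). Cdt1, which loads that helicase, changed by 0.29 (adjusted p = 0.0481). Of 21 stem cell and Notch genes, all tested, 1 was called higher (Cdca7, log2 change 0.32) and 0 lower, against 0.696% higher over all tested genes, with a median of 0.17. Olfm4, the most abundant stem cell marker of this list, was at 433.8, 390.7 and 343.2 FPKM in Sa and at 514.8, 512.2 and 456.4 FPKM in A10-FMT, and was not called (adjusted p = 0.119). Srm, spermidine synthase, lay outside the lists and was called with a log2 change of 1.05 ± 0.20, from 7.22, 6.46 and 6.41 FPKM to 19.3, 11.6 and 14.9 FPKM.

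Ribosomal protein genes formed a narrow band. All 32 listed were tested, 31 had a positive log2 change, in 25 every A10-FMT library was above every Sa library (19.2% over all tested genes), and the median was 0.18. The median was 0.15 with trimmed-mean scaling and 0.08 with quantile normalization. The 1 called member of the 32 was lower (1.42% lower over all tested genes). Rpl30 was at 497.3, 513.1 and 528.3 FPKM in Sa and at 249.4, 319.3 and 257.5 FPKM in A10-FMT, a log2 change of -0.90 (limma adjusted p = 0.0239). Rps16, which was not on the list, was called with 0.23, from 1068, 1083 and 1099.9 FPKM to 1286, 1252.5 and 1268 FPKM. Ribosomal protein genes have many processed copies, so that reads can be assigned to more than 1 of them, and Gm7429, with the largest log2 change of the called genes (2.20 ± 0.30, limma adjusted p = 0.0163), is a predicted gene whose level rose from 1.42, 2 and 1.98 FPKM to 13.2, 8.17 and 15.0 FPKM.

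Among the immune lists, calls of higher genes were found in the immunity-related GTPases. Of 16 GTPases of the IRG and GBP families, which act on vacuoles that hold microbes, 14 were tested, 2 were called higher and 0 lower (0.696% higher over all tested genes), and the median log2 change was 0.30. Tgtp1 was at 6.17, 5.94 and 5.06 FPKM in Sa and at 11.9, 14.45 and 13.0 FPKM in A10-FMT, a log2 change of 1.07 ± 0.23 (limma adjusted p = 0.0433), though its copy Tgtp2 can share its reads. Irgm1 was at 79.5, 88.2 and 81.2 FPKM in Sa and at 112.8, 104.8 and 103.7 FPKM in A10-FMT, a log2 change of 0.37 (adjusted p = 0.0363). None of the 33 tested interferon response genes was called, which is near the 2.11% called in either direction over all tested genes. Their median of 0.02 was near that of all genes. An unadjusted p under 0.05 in limma was found for 6 of the 33, against 2584 of all 11351 tested genes. Of 27 tested MHC class I and peptide loading genes, H2-Q1 was called lower (log2 change -0.62, against 1.42% lower over all tested genes), a gene with close relatives in the same cluster, and 0 were called higher. None of the 21 tested NOD-like receptor and inflammasome genes and none of the 7 tested MHC class II genes was called. Both counts are near the 2.11% called in either direction over all tested genes. An unadjusted p under 0.05 was found for 6 of the 21 and for 0 of the 7 in limma.

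The genes of the proteins that the study measured in tissue were not called. Of 14 listed, 12 were tested, since Gja4 and Cldn1 were under a mean of 1 FPKM. The study gives its claudin without a number, so that Cldn1 is a choice made here. An unadjusted p under 0.05 in limma was found for 3 of the 12, against 2584 of all 11351 tested genes. Over all tested genes 2.11% were called in either direction, so that 0 of 12 is near the background. Cdh1, E-cadherin, was at 257.9, 261.8 and 252.5 FPKM in Sa and at 254.3, 256.9 and 243.5 FPKM in A10-FMT. Tjp1, encoding ZO-1, was at 22.2, 23.6 and 21.1 FPKM in Sa and at 20.2, 21.98 and 22.2 FPKM in A10-FMT. The groups overlapped in both, and the log2 changes were -0.03 ± 0.05 and -0.05 ± 0.08. The median over the 12 was -0.04. None of 19 tested tight junction genes was called, and Cdh17 was the 1 called, lower, of 20 tested genes of adherens, desmosome and gap junctions (1.42% lower over all tested genes).

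Markers of other cells were given for the same libraries. Of 15 goblet cell genes, all tested, Muc2, the main mucin, was called lower (log2 change -0.25) and 0 were higher (1.42% lower over all tested genes), with a median of -0.06. Of 15 tested enteroendocrine genes, Chgb, a protein of secretory granules, was called higher (log2 change 0.38) and 0 were lower (0.696% higher over all tested genes), with a median of 0.16. Of T cell and intraepithelial lymphocyte genes, 20 were listed, 17 were in the table and 8 were tested. The 8 had 0 calls by limma (2.11% in either direction over all tested genes). An unadjusted p under 0.05 was found for 0 of the 8, against 2584 of all 11351 tested genes. Their median was -0.55, which ran from -0.68 to -0.34 when 1 library was left out. The summed level of the 17 was 83.4, 85.8 and 155.8 FPKM in Sa and 70.4, 58.2 and 55.1 FPKM in A10-FMT, without overlap. Gzma, a granule protease of killer cells, was the most abundant. Cd4 was at 0.14 FPKM or less in the 6 libraries. The part of these cells in the other results was not tested. In bulk RNA, fewer cells of a type and less RNA per cell cannot be told apart.

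**Figure D4:**
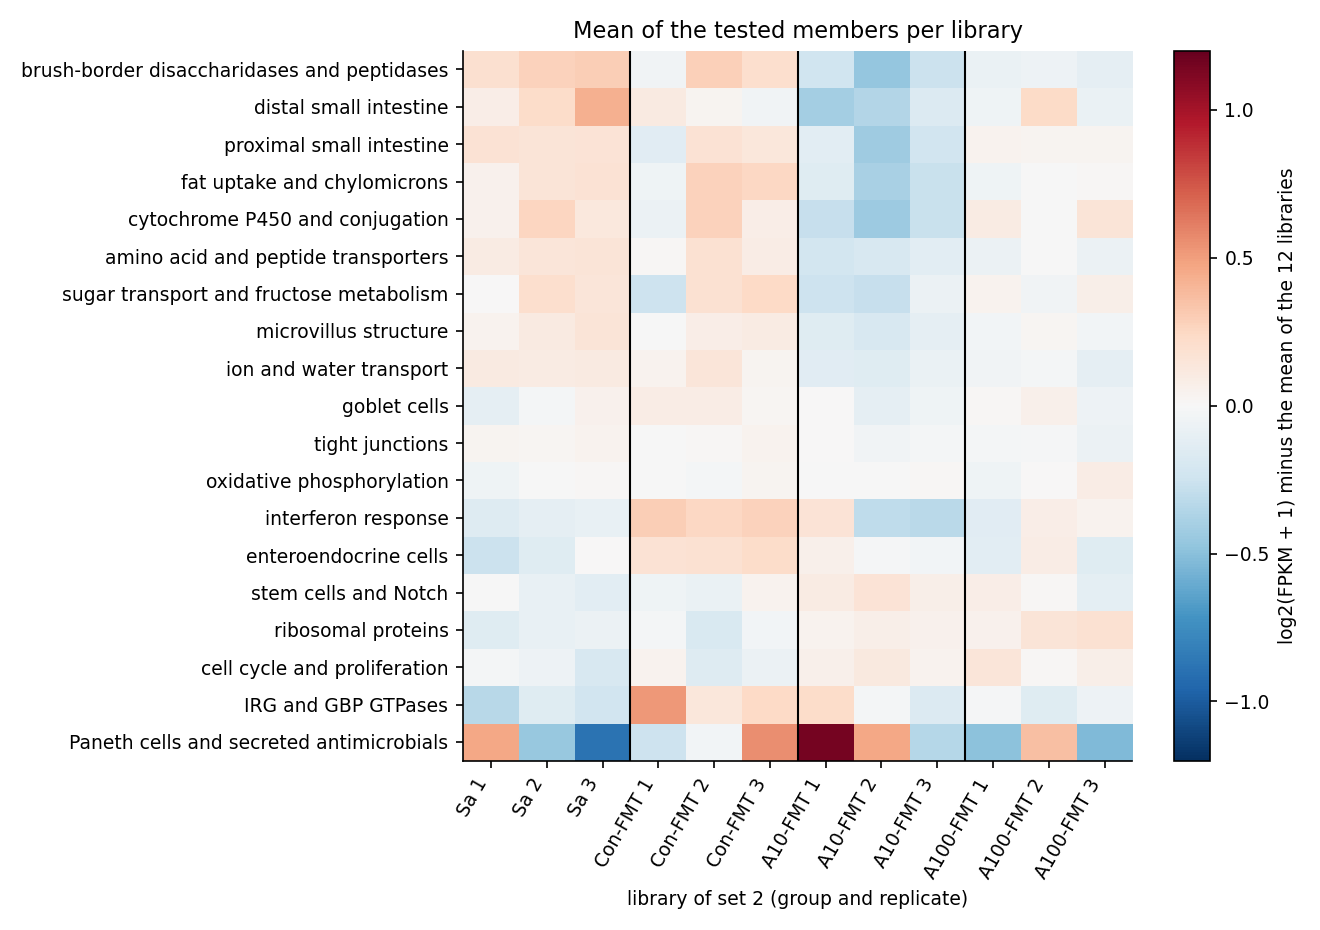
Mean over the tested members of 19 gene lists in each library of set 2, as log2(FPKM + 1) minus the mean of the 12 libraries (colour, red above and blue below). For brush-border enzymes, fat uptake and P450 genes, the 3 A10-FMT libraries lie below the 3 Sa libraries. For Paneth cell genes, Sa replicate 1, at 0.46, stands among the A10-FMT libraries, which run from -0.34 to 1.15.

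The other FMT groups of set 2 show how far these changes went with A10-FMT. The means of A10-FMT and Con-FMT were compared directly, while the spread came from all 12 libraries of set 2, Sa among them. limma called 75 genes (0.661%), 9 higher (0.0793%) and 66 lower (0.581%) in A10-FMT. The lower genes included 4 of the 17 brush-border enzymes, 4 of the 17 amino acid and peptide transporters and 4 of the 24 genes of fat uptake. Slc5a12 had a log2 change of -1.29 ± 0.18 in this comparison, Fabp2 of -0.79, Slc6a19 of -0.84 and Anpep of -0.55. Ada, adenosine deaminase, and Ubd, a ubiquitin-like protein induced by interferon, had the lowest values among the called genes, with -1.38 and -1.33. Ada was at 37.7, 38.4 and 43.9 FPKM in Con-FMT, at 19.7, 13.1 and 12.3 FPKM in A10-FMT and at 21.0, 12.1 and 23.5 FPKM in Sa, so that A10-FMT lay in the range of Sa apart from Con-FMT. Of 33 tested interferon response genes 5 were called lower in A10-FMT than in Con-FMT. The 8 tested T cell and intraepithelial lymphocyte genes had 0 calls here and a median of -1.29, and their list summed to 92.6, 218.6 and 300.3 FPKM in Con-FMT, above the 3 A10-FMT libraries. Their part in the other values was not tested. Of the 9 genes called higher than in Con-FMT, those with a symbol and the highest values were Akip1, Rgmb and Aadac, with log2 changes of 0.30, 0.29 and 0.27. None of the 20 tested Paneth cell genes was called between A10-FMT and Con-FMT, which is near the 0.661% called over all tested genes. Their median log2 change was 0.33 in this comparison, against 0.05 over all tested genes. The count of 75 was 0 without A10-FMT replicate 2 and 3, 4 and 3 without Con-FMT replicates 2 and 3 and A10-FMT replicate 3, and it was 0 with the 6 libraries of these groups alone in the fit (2048 genes at an unadjusted p under 0.05).

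Between A10-FMT and A100-FMT, 2 genes (0.0176%) were called, 1 higher (0.00881%) and 1 lower (0.00881%), with 1328 genes at an unadjusted p under 0.05. Pla2g2f, a secreted phospholipase, was at 6.67, 6.04 and 5.86 FPKM in A10-FMT and at 4.04, 3.63 and 3.76 FPKM in A100-FMT, a log2 change of 0.58 ± 0.07 (limma adjusted p = 0.0229), and was also higher than in Sa (log2 change 0.49, adjusted p = 0.0163). The other was an entry with a BGI identifier. The comparisons with Sa share the Sa libraries, so that their values are set side by side only. Con-FMT against Sa gave 11 calls (0.0969%), all higher, and A100-FMT against Sa gave 399 (3.52%), 250 higher (2.2%) and 149 lower (1.31%). The median log2 change of the brush-border enzymes was -0.59 in A10-FMT, -0.13 in Con-FMT and -0.36 in A100-FMT. For fat uptake the medians were -0.38, -0.02 and -0.17, for Paneth cell genes 0.88, 0.49 and 0.16, for IRG and GBP GTPases 0.30, 0.51 and 0.23, and for ribosomal proteins 0.18, 0.02 and 0.22. Ang4 was at 742.7, 676.7 and 708.0 FPKM in Con-FMT and at 550.3, 369.7 and 469.1 FPKM in A100-FMT, between or within the ranges of Sa and A10-FMT. Tgtp1 had log2 changes against Sa of 1.07 in A10-FMT and 1.16 in Con-FMT, where it was not called (limma adjusted p = 0.0974). The 2 GTPases called higher in Con-FMT were Irgm1 and Gbp2.

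In set 1 most of these genes had a change of the other sign. The change in A10-FMT against Sa was compared between the sets as an interaction in a fit of all 23 libraries, and limma called 3216 of 11337 genes (28.4%), 2017 (17.8%) with a more positive and 1199 (10.6%) with a more negative change in set 2. With trimmed-mean scaling the interaction gave 1439 and 1577. Set 1 had 2 Sa libraries, and the count depended on them: it was 6616 without Sa replicate 1 of set 1, 2313 without Sa replicate 3, 1472 with the A10-FMT and Sa libraries alone, and 0 with array quality weights (1843 genes at an unadjusted p under 0.05). These genes were chosen on set 2, whose contrast is a part of the interaction, so only their values in set 1 add to it. Of the 161 genes called lower in set 2, 154 had a positive log2 change in set 1, with a median of 0.60. Of the 79 called higher, 69 had a negative one, with a median of -0.40, while 48.3% of all tested genes were positive there. A Sa library of set 1 has a title and a description that name different columns, and with the column of the description the counts were 154 and 72, while 7288 of 11295 tested genes were negative there, against 5834 with that of the title. With the column of the title, this library, Sa replicate 3, had an FPKM sum of 667957, against 556466 to 612482 in the other libraries. It had 10842 genes at 1 FPKM or more, the fewest of the 23 libraries. The part of this in the counts was not tested.

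Genes of opposite sign in the sets included absorptive genes. Fabp2 changed by -0.87 in set 2 and by 1.44 in set 1, Slc5a12 by -1.31 and 1.57, and Slc34a2 by -0.90 and 0.76, while Gm7429 had 2.20 and -0.90, the latter -0.40 with the description's column. The median of the brush-border enzymes was 0.66 in set 1, that of fat uptake 0.48, that of Paneth cell genes -0.25 and that of ribosomal proteins -0.56, or -0.33 with the description's column. Tgtp1 had log2 changes of 1.07 and 1.03, the latter 0.51 with the description's column. What else differed between the sets is not given in the sources used here and cannot be told apart from the set.

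**Figure D5:**
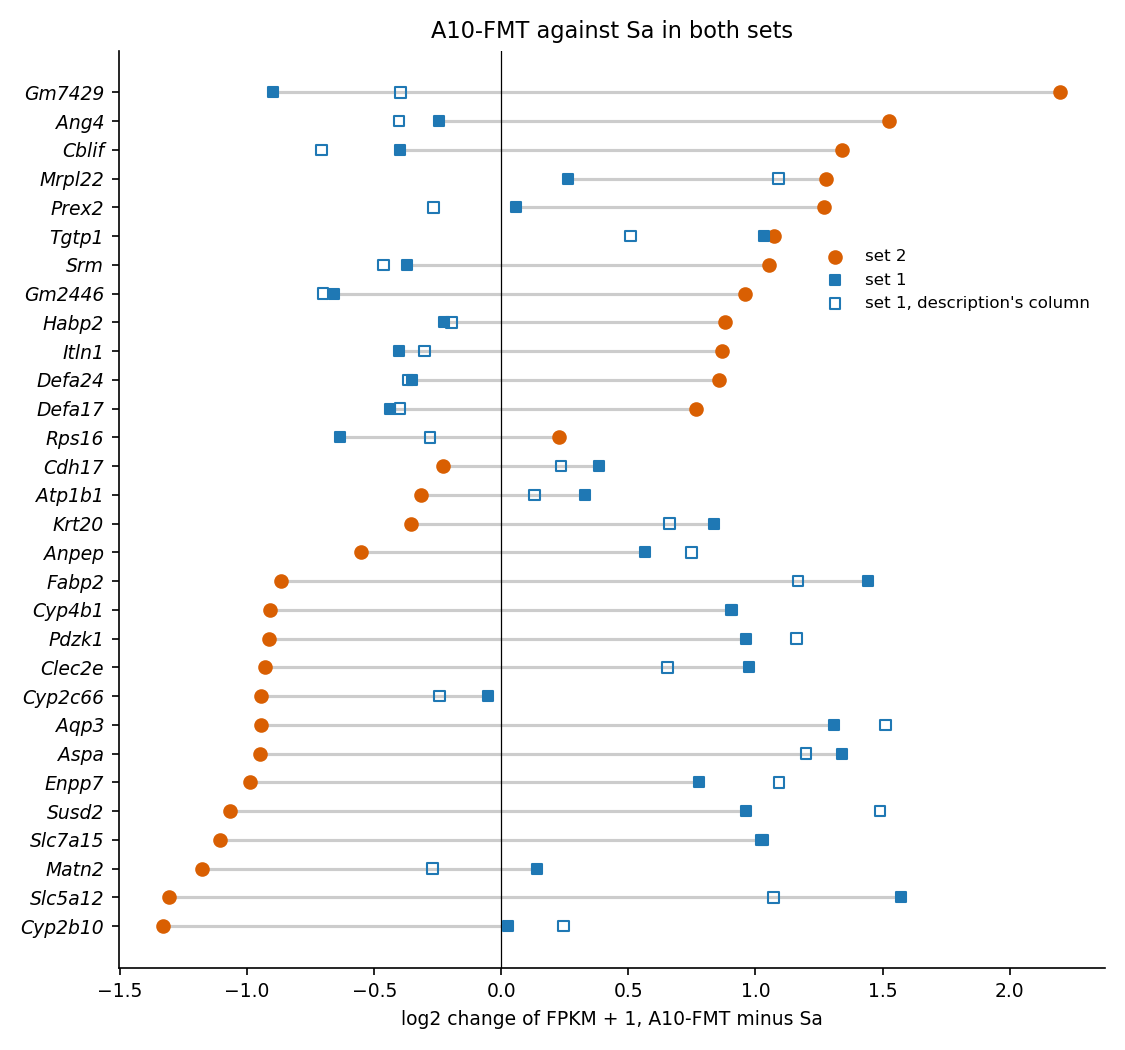
Log2 change of FPKM + 1 in A10-FMT minus Sa for the 30 genes with the largest changes or highest levels among the calls of set 2 that have a symbol, which leaves out entries with BGI identifiers, in set 2 (circles) and in set 1 (filled squares, and open squares with the description's column for 1 Sa library). Most genes lie on opposite sides of 0 in the 2 sets. With the title's column Tgtp1, Mrpl22, Prex2 and Cyp2c66 do not, and with the description's column Tgtp1, Mrpl22, Matn2 and Cyp2c66 do not.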

How the data were processed

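Small intestine RNA of ICR mice was sequenced in 23 libraries. The authors describe TRIzol extraction, Illumina HiSeq sequencing, RPKM computed from reads per gene, and DEGseq for differential expression. The deposited table holds FPKM by the authors, named so in its columns, for 19215 entries in 24 columns. The submitters' processing notes name mm10, and the aligner is not given in the sources used here. Depth is not known, and no interval or floor was computed.

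Values were analysed as log2(FPKM + 1) in limma 3.58.1 (R 4.3.3), with tables and plots in Python 3.11.15 (numpy 2.4.6, pandas 2.3.3, matplotlib 3.10.9). The 12 libraries of set 2 were fitted with 1 mean per group (lmFit, contrasts.fit, eBayes with trend). The 11351 genes whose mean over these libraries reached 1 FPKM were tested, and p-values were adjusted over them by the Benjamini-Hochberg method with a threshold of 0.05. The added 1 shrinks the changes of low genes. Nothing says that the libraries of a group are more than separate samples, so p-values measure the spread between these samples. The interaction between the sets used all 23 libraries, with the column of the title for the Sa library of set 1 whose title and description differ.

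The gene lists and members were chosen with earlier results of these data known. Named genes are, among called genes with a symbol and without overlap (which leaves out entries with BGI identifiers), the 12 highest and the 12 lowest by log2 change, the 5 called genes with the highest mean in each direction, up to 4 called and the 2 most abundant members of each list, the genes of proteins the study measured, and the 3 largest and 3 smallest changes in the other comparisons. The other members of the lists named beside them were chosen after their values were seen. Some genes that the rule names are not reported here. A symbol was found for 17725 of 17842 NCBI Gene identifiers. Data were simulated with the spread of these libraries (10 simulations, 200 changed genes, 11351 tested). For A10-FMT against Sa, 94.43% of 2-fold and 98.14% of 4-fold changes were recovered, with 4.48% false calls. Recovery of smaller changes is not given, and only 10 of the higher and 5 of the lower called genes reached 2-fold. These shares therefore do not describe most of the 240 calls. They hold for the simulated data and do not cover the dependence of the calls on single libraries.

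Alternatives were a pseudocount of 0.1, all genes above 0, a minimum mean of 5 FPKM, trimmed-mean scaling, quantile normalization, a fit of the compared groups alone or of all 23 libraries, the description's column, array quality weights, a replicate block, robust shrinkage, GC content and length taken out, and leaving out each library.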

Additional observations from a re-analysis of the deposited data

Results flagged for a closer look

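The change from Sa to A10-FMT differed between set 2 and set 1 for 3216 genes in limma's test of the difference (adjusted p under 0.05). The values below are the log2 change in set 2 minus that in set 1, for the 26 of the 30 largest or most abundant called genes with a symbol in set 2 that passed it. These genes were chosen on set 2, so the sign of the difference follows in part from the choice. Among genes higher in set 2, it was 3.10 for Gm7429, 1.77 for Ang4, 1.74 for Cblif, 1.62 for Gm2446, 1.11 for Habp2, 1.27 for Itln1, 1.21 for Defa24 and for Defa17, and 0.86 for Rps16. Among transporters and channels lower in set 2, it was -2.88 for Slc5a12, -2.14 for Slc7a15, -2.26 for Aqp3 and -0.64 for Atp1b1. Among enzymes and binding proteins lower in set 2, it was -1.36 for Cyp2b10, -0.89 for Cyp2c66, -1.81 for Cyp4b1, -1.77 for Enpp7, -2.29 for Aspa, -1.12 for Anpep and -2.31 for Fabp2. For the remaining lower genes it was -1.32 for Matn2, -2.03 for Susd2, -1.91 for Clec2e, -1.87 for Pdzk1, -1.19 for Krt20 and -0.61 for Cdh17. With array quality weights, 0 genes passed this test in limma and 1843 had an unadjusted p under 0.05.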

How the results depend on the processing

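With 3 libraries a group, the counts of calls rest on single libraries and on the fit. A10-FMT against Sa (240 calls) gave 101 with every gene above 0 tested, 154 with the libraries of both groups alone, 48 with all 23 libraries, 1334 with array quality weights, 375 with GC content and length taken out, and 1 to 434 when each library was left out (434 without Con-FMT replicate 1, 130 without A100-FMT replicate 2). A10-FMT against Con-FMT (75 calls) gave, in the order of every gene above 0, a minimum mean of 5 FPKM, trimmed-mean scaling, both groups alone, all 23 libraries, weights, and GC content and length taken out, 43, 132, 135, 0, 43, 595 and 222, and 0 to 403 leaving out a library (403 without Con-FMT replicate 1, 118 without A10-FMT replicate 1). A10-FMT against A100-FMT (2 calls) gave 5 with every gene above 0, 1 with a minimum mean of 5 FPKM, with both groups alone, with all 23 libraries and with GC content and length taken out, and 0 to 3 leaving out a library. The interaction with set 1 (3216 genes) gave 1472 with A10-FMT and Sa libraries alone, 0 with array quality weights, and 2313 to 6616 leaving out a library. Of the 30 genes with a symbol and the largest changes or highest levels, none changed sign under any alternative run. They were taken from the calls, whose FPKM values did not overlap between the groups, so leaving out a library could not change their sign. Over gene and alternative pairs, 488 kept the call and 224 lost it; 0 of 30 kept it without Sa replicate 2 or 3, 2 without A10-FMT replicate 2, 12 with all 23 libraries, and 26 with these and the description's column. The causes were not tested.

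With the replicate number as a block, the counts were 176 for A10-FMT against Sa, 36 against Con-FMT, 4 against A100-FMT and 3235 for the interaction. The deviations of same-numbered A10-FMT and Sa libraries correlated at 0.20, -0.02 and 0.26, and those of differently numbered ones at -0.25 to 0.06. Pairing is not given by the design, and whether same-numbered samples share more than a number was not tested.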

Other observations

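Over all tested genes, 2.11% were called in either direction between A10-FMT and Sa in set 2, by limma with an adjusted p under 0.05, and the counts of 0 in the following 5 lists are near that share. None was called of 18 tested p53 targets, which respond to DNA damage (median log2 change 0.02), of 17 apoptosis regulators (-0.03), of 32 genes of oxidative phosphorylation (0.02), of 21 heat shock and unfolded protein genes (0.06) or of 26 genes of sterol and fatty acid synthesis (0.03). In the order given, 5, 1, 1, 3 and 0 of them had an unadjusted p under 0.05 in limma, against 2584 of all 11351 tested genes. The median over all tested genes was 0.03. Klf6, a transcription factor, was the 1 called of 13 immediate early genes (1.42% lower over all tested genes), with a log2 change of -0.31.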
